A study of Homo sapiens with 24 samples.

Results

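The replication-dependent histone mRNAs encode the bulk of the histone proteins made while DNA is copied. They were taken as every gene whose symbol is H1-1 to H1-5, or H2AC, H2BC, H3C or H4C followed by a number. Of 68 such symbols in the gene name table, 66 were among the 60666 genes counted. H2AC18 and H2AC19 were not analysed here. The 66 genes were 5 linker histone (H1) genes, 15 H2A, 18 H2B, 13 H3 and 15 H4 genes. In the genome build GRCh38 the histone locus of chromosome 6 held 54 of them, chromosome 1 held 11 and chromosome 12 held 1.

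RNA from polysomal fractions and total (input) RNA was sequenced from H460, a human large cell lung carcinoma line, and A549, a human lung adenocarcinoma line. Both lines were grown in RPMI medium with fetal bovine serum and transfected with an siRNA against RICTOR (siRIC) or a control siRNA (siNT). RICTOR is a subunit of the mTORC2 kinase complex. The groups were H460 siRIC polysomal, H460 siNT polysomal, H460 siRIC total, H460 siNT total, A549 siRIC polysomal, A549 siNT polysomal, A549 siRIC total and A549 siNT total RNA, with 3 libraries each and 24 in all. The labels call the siRIC cells a Rictor knockdown and the siNT cells wild type. They do not say how long after transfection the cells were harvested, nor whether libraries of the same group stem from different cultures. The p-values therefore speak of the spread among these libraries, which may be technical.

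Replication-dependent histone mRNAs are the known exception among animal mRNAs in having no poly(A) tail. They end in a short stem-loop that is bound by the stem-loop binding protein SLBP, which serves their processing, translation and decay, and they are made mostly in S phase under the coactivator NPAT. The genes lie in clusters, carry no introns in their main form, and occur in many near-identical copies. Some of them, among them H1-2, H2AC6, H2BC5, H2BC12 and H2BC21, are known to give longer, polyadenylated transcripts as well. In bulk RNA a smaller share of cells in S phase and less histone mRNA per cell cannot be told apart.

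The promoters of 5 genes are shown because their genes carry the level and line differences described further on. H1-2 and H2BC12 had the highest levels, H2AC25 was the most abundant H2A mRNA and higher in H460, and H2AC11 and H2AC8 were each at 0 in one of the lines. Each run gives the bases before the RefSeq start of the gene, 5′ to 3′ on the gene's own strand, from the RefSeq promoter table of GRCh38.p14. It stops at the start of the neighbouring gene where that is nearer than 250 bases. Capitals mark 3 motifs on either strand, which are TATAA (as in a TATA box), the CCAAT box and the octamer ATTTGCAT. In their order here, the coordinates are chr6:26056471-26056720 (minus strand), chr6:27146859-27147105 (minus), chr1:228457874-228458102 (minus), chr6:27132796-27133042 (plus) and chr6:26216689-26216920 (plus).
H1-2: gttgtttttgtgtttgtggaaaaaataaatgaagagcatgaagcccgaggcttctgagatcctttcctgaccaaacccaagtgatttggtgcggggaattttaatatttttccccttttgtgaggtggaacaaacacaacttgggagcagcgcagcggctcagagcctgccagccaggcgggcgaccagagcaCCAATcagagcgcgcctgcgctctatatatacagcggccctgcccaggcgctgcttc
H2BC12: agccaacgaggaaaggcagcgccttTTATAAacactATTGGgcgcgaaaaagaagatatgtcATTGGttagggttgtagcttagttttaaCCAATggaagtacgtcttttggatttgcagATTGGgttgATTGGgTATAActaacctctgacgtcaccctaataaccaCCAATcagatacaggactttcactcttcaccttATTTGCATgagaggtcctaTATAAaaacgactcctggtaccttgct
H2AC25: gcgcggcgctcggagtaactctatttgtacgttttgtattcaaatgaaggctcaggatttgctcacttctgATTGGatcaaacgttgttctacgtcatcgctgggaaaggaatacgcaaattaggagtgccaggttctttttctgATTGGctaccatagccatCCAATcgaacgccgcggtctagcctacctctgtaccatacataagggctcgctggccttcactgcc
H2AC11: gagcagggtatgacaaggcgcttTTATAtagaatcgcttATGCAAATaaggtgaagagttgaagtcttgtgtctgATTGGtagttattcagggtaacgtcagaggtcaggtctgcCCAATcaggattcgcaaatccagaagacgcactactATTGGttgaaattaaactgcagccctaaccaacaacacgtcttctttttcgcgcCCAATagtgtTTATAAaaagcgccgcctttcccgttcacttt
H2AC8: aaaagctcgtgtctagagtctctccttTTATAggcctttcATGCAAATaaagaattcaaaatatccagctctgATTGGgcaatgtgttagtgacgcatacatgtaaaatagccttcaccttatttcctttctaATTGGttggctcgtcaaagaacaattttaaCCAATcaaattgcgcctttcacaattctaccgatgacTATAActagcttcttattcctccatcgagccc
The H2BC12 run ends at the start of H2AC12, which has no entry in that table. The last 3 runs are likewise the whole interval between an H2A gene and an H2B gene, here with both strands given and transcribed away from each other, H2AC25 with H2BC26, H2AC11 with H2BC11 and H2AC8 with H2BC8. The H2BC11 and H2BC8 side of such an interval is the reverse complement of the same run, so a single match counts for both genes.

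Of the 61 histone genes with an entry in that table, 91.8% held TATAA on either strand in the 250 bases before the start, against 19.6% of all 27305 genes. CCAAT was held by 83.6% of the histone genes and 33.0% of all genes. It was in every H1, H2A, H2B and H3 window and in 3 of 13 H4 windows. ATTTGCAT, the octamer sequence, was held by 42.6% of the histone genes and 1.66% of all genes. It was in 11 of 14 H2A, 14 of 18 H2B and 1 of 11 H3 windows, and in 0 of 5 H1 and 0 of 13 H4 windows. H1-2 and H2AC25 had neither TATAA nor ATTTGCAT in the runs printed above. A match describes letters and not a site in use.

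All replication-dependent histone genes together took up 0.00756% to 0.0162% of the estimated counts of a library, with a median of 0.0107%. Library totals lay between 19087204 and 26550160 estimated counts, so the 66 genes shared 1797 to 3423 counts per library. Levels are given as CPM, the count scaled to library totals of equal size with TMM factors, and the precision of low values is limited by these counts. Mitochondrially encoded genes held 2.04% to 4.18% of the counts in polysomal and 13.5% to 18% in total libraries. RICTOR itself fell by 1.52 ± 0.30 on the log2 scale in H460 total RNA and by 1.90 ± 0.31 in H460 polysomal RNA, without passing the adjusted threshold (adjusted p = 1 and 0.620, unadjusted p = 0.000252 and 4.25e-05). In A549 it fell by 1.38 ± 0.23 in total and by 1.5 ± 0.23 in polysomal RNA (adjusted p = 0.0159 and 0.00700). The 5 epithelial markers, among them the keratin KRT8, summed to 2033 to 23030 CPM. The fibroblast markers COL1A1, DCN and LUM summed to 139.5 and 165.3 CPM in the H460 siRIC and siNT polysomal libraries of replicate 3 and to at most 78.2 CPM in the other libraries, and their part in the results was not tested. Endothelial markers summed to at most 0.153 CPM. The 4 leukocyte markers summed to 2.65 to 11.96 CPM, and 2 of them, among them CD3E, had no count in any library. Only 1 leukocyte marker passed the filter in each line. It was called higher in polysomal than in total RNA, by log2 1.30 in H460 siRIC, 0.81 in H460 siNT, 1.17 in A549 siRIC and 1.35 in A549 siNT cells.

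The summed histone level was 180.1, 141.2 and 134.7 CPM in H460 siRIC polysomal libraries, 182.6, 147.4 and 118.9 CPM in H460 siNT polysomal libraries, 115, 95.8 and 93 CPM in H460 siRIC total libraries and 105, 92.3 and 89.1 CPM in H460 siNT total libraries. Values of a group are given throughout in the order of replicates 1, 2 and 3. In A549 the sum was 123, 114 and 106 CPM in siRIC polysomal, 111, 95.4 and 109 CPM in siNT polysomal, 87.7, 90.7 and 77.8 CPM in siRIC total and 75.5, 71.6 and 74.4 CPM in siNT total libraries. On this scale every polysomal library of a line had a higher sum than every total library. With plain library totals they overlapped, as A549 siNT polysomal replicate 2 had 95.3 CPM against 98.9 and 99.3 CPM in A549 siRIC total replicates 1 and 2, and H460 siNT polysomal replicate 3 had 109.0 CPM against 110.5 CPM in H460 siRIC total replicate 1. Under either scale each polysomal library was above the total library of the same line, siRNA and replicate number. With totals that leave out mitochondrially encoded genes this did not hold for A549 siRIC replicate 2 (120.5 CPM polysomal, 120.6 CPM total) and held for the other 11 pairs. The H460 polysomal libraries spread more (SD 24.6 and 31.9 CPM, n = 3 each) than the A549 polysomal ones (SD 8.36 and 8.44 CPM, n = 3 each).

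The labels bear on how these levels can be read, since they name polyA RNA as the molecule while the protocol names a total RNA kit with ribosomal RNA depletion. The 11 replacement histone genes, most of which give only polyadenylated mRNAs, summed to 1666 to 3091 CPM per library, and the 66 replication-dependent genes to 71.6 to 182.6 CPM. A list of 26 RNAs that lack a poly(A) tail, among them MALAT1, 7SK and 7SL RNA, summed to 10.3 to 156 CPM. A list of 404 olfactory receptor genes, often without introns and silent in most tissues, summed to 0.501 to 1.80 CPM, and 369 of them had no count. The histone sum thus lay far below that of the replacement histones in all 24 libraries and above that of the olfactory receptors. Which of the 2 labelled preparations holds was not tested.

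**Figure D1:**
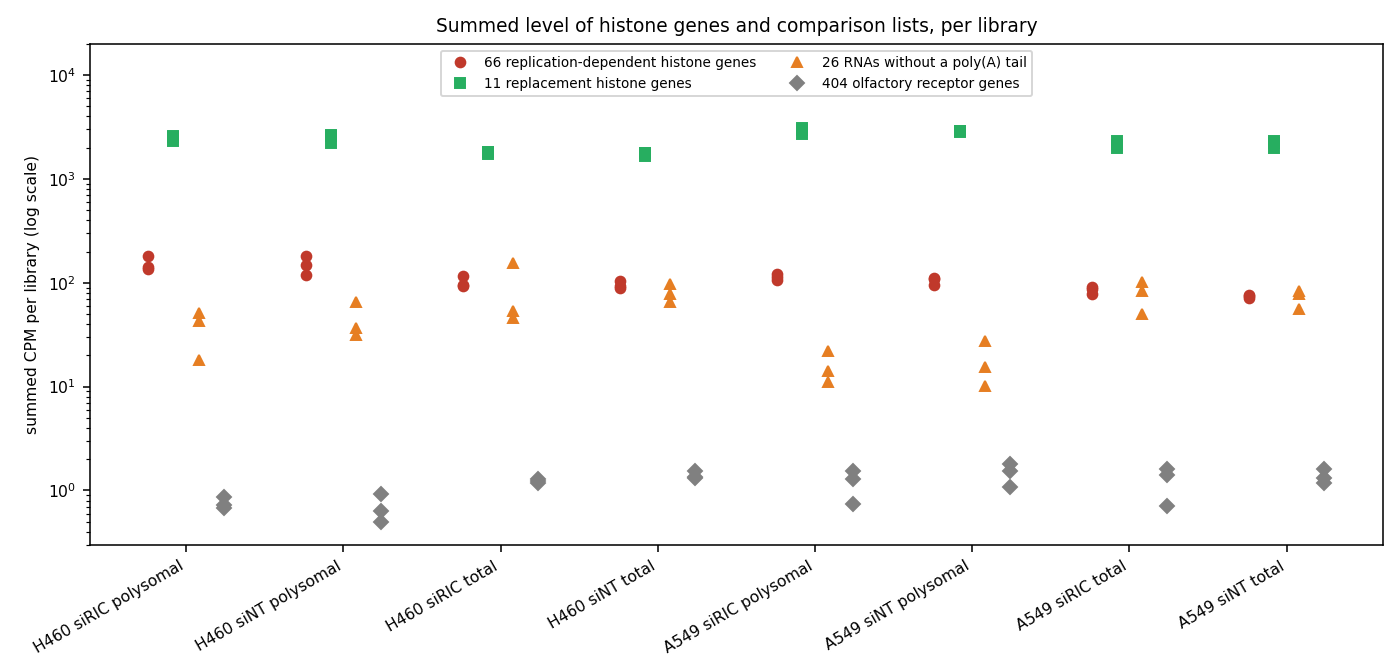
Summed level per library (CPM, log scale) of the 66 replication-dependent histone genes (circles), 11 replacement histone genes (squares), 26 RNAs without a poly(A) tail (triangles) and 404 olfactory receptor genes (diamonds), with 3 libraries per group. The histone circles lie between 71.6 and 182.6 CPM, below all squares and above all diamonds, and on this scale are higher in polysomal than in total libraries of each line.

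A few genes made up most of the sum. H2BC12 held 21.2% of the mean summed level, H2BC12 and H1-2 together 40.9%, and these with H2AC25, H2AC6, H4C14 and H2BC5 71.0%. Of the 66 genes, 51 had a mean under 1 CPM over the 24 libraries, and H1-1, H2AC1, H2BC1, H4C6 and H4C7 had no count in any. Among the 58 genes whose annotated span is under 1000 bases, H1-2 led with 29.5 CPM per kilobase, followed by H2AC25 with 22.6, H4C14 with 18.7 and H2AC6 with 16.2. The next were H4C11 and H3C10 with 4.12 CPM per kilobase each, so 4 genes stood well above the rest per length.

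Among the H2B genes those with a longer annotated span had the higher levels. The 5 H2B genes that span 1000 bases or more (H2BC4, H2BC5, H2BC12, H2BC18 and H2BC21) had a median level of 3.11 CPM (0.771 to 23.2), and all 5 passed the filter on low counts in both lines. The 13 shorter H2B genes had a median of 0.331 CPM (0 to 1.5), and 5 of them passed in each line. These levels are per gene and not per length, and introns make up part of the longer spans. H4C9 lies inside the H2BC12 span, and 10 of the 66 genes overlap another annotated gene, so their reads may not be separable.

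The linker histone H1-2, on chromosome 6 from base 26055740 to 26056470, is 1 of the somatic H1 subtypes that bind DNA between nucleosomes. H460 cells had H1-2 at 43.7, 37.5 and 33.9 CPM in siRIC polysomal, 44.5, 30.7 and 31.4 CPM in siNT polysomal, 16.1, 13.4 and 13.8 CPM in siRIC total and 15, 12.1 and 12.4 CPM in siNT total libraries. A549 cells had H1-2 at 29.1, 27 and 24 CPM in siRIC polysomal, 23.5, 21.6 and 27.5 CPM in siNT polysomal, 12.7, 11 and 9.6 CPM in siRIC total and 8.81, 9.62 and 9.27 CPM in siNT total libraries. Polysomal and total libraries did not overlap in either line, and siRIC and siNT libraries overlapped within each fraction. H1-4, another somatic linker histone, was far lower. H460 cells had H1-4 at 2.67, 1.48 and 1.82 CPM in siRIC polysomal, 1.97, 1.5 and 0.818 CPM in siNT polysomal, 1.08, 0.285 and 0.241 CPM in siRIC total and 0.153, 0.292 and 0.191 CPM in siNT total libraries. A549 cells had H1-4 at 1.16, 1.25 and 1.23 CPM in siRIC polysomal, 1.53, 0.889 and 0.507 CPM in siNT polysomal, 0.164, 0.125 and 0.328 CPM in siRIC total and 0.199, 0.82 and 0.207 CPM in siNT total libraries. The highest H460 total library, siRIC replicate 1 with 1.08 CPM, overlapped the polysomal range, and so did A549 siNT total replicate 2 with 0.820 CPM.

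The linker histone H1-3 was in the same low range. H460 cells had H1-3 at 0.39, 0.403 and 0.758 CPM in siRIC polysomal, 1.07, 0.501 and 0.382 CPM in siNT polysomal, 0.0828, 0.122 and 0.0802 CPM in siRIC total and 0.204, 0.0972 and 0.239 CPM in siNT total libraries. A549 cells had H1-3 at 1.12, 0.624 and 1.35 CPM in siRIC polysomal, 0.547, 0.773 and 0.415 CPM in siNT polysomal, 0.205, 0.457 and 0.219 CPM in siRIC total and 0.238, 0.107 and 0.29 CPM in siNT total libraries. Its polysomal libraries were above its total libraries in both lines apart from an overlap between A549 siNT polysomal replicate 3 and A549 siRIC total replicate 2. H1-3 was too low to pass the filter in H460.

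H2A is paired with H2B in the nucleosome core. H2AC25, on chromosome 1 from base 228457364 to 228457873, was the most abundant H2A mRNA. H460 cells had H2AC25 at 25.4, 22.1 and 13.4 CPM in siRIC polysomal, 22.4, 21.2 and 11.3 CPM in siNT polysomal, 18.3, 17.6 and 16.3 CPM in siRIC total and 16.1, 14 and 13.1 CPM in siNT total libraries. A549 cells had H2AC25 at 5.45, 7.93 and 6.38 CPM in siRIC polysomal, 6.93, 5.72 and 5.99 CPM in siNT polysomal, 4.52, 5.74 and 5.25 CPM in siRIC total and 3.65, 4.13 and 4.06 CPM in siNT total libraries. Every H460 library was above every A549 library, and both H460 polysomal libraries of replicate 3 were low beside replicates 1 and 2. H2AC6, on chromosome 6 from base 26124172 to 26124690, had the opposite line difference. H460 cells had H2AC6 at 5.62, 4.25 and 6.26 CPM in siRIC polysomal, 6.08, 4.01 and 5.56 CPM in siNT polysomal, 5.75, 3.83 and 4.29 CPM in siRIC total and 6.38, 4.52 and 5.02 CPM in siNT total libraries. A549 cells had H2AC6 at 16.9, 10.2 and 12 CPM in siRIC polysomal, 12.4, 9.05 and 16.1 CPM in siNT polysomal, 12, 10.7 and 11.1 CPM in siRIC total and 10.4, 8.91 and 10.2 CPM in siNT total libraries. Every A549 library was above every H460 library, and the fractions overlapped in both lines.

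H2AC20, a chromosome 1 H2A gene, reached lower levels. H460 cells had H2AC20 at 1.17, 1.52 and 1.16 CPM in siRIC polysomal, 1.33, 1.13 and 0.6 CPM in siNT polysomal, 0.911, 0.611 and 0.321 CPM in siRIC total and 0.306, 0.389 and 0.622 CPM in siNT total libraries. A549 cells had H2AC20 at 3.44, 3.12 and 3.08 CPM in siRIC polysomal, 2.37, 2.24 and 2.03 CPM in siNT polysomal, 1.19, 2.08 and 1.53 CPM in siRIC total and 1.39, 0.963 and 1.2 CPM in siNT total libraries. In A549 all polysomal siRIC libraries were above all others, while in H460 the polysomal and total libraries overlapped, since siNT polysomal replicate 3 lay below siRIC total replicates 1 and 2 and siNT total replicate 3.

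H2BC12, on chromosome 6 from base 27138293 to 27146858, was the most abundant H2B mRNA and the most abundant of all 66 by CPM. H460 cells had H2BC12 at 41.6, 36.6 and 35 CPM in siRIC polysomal, 38.8, 41.9 and 32 CPM in siNT polysomal, 33.2, 30.9 and 30.4 CPM in siRIC total and 29.2, 31.7 and 24.5 CPM in siNT total libraries. A549 cells had H2BC12 at 13.4, 17.9 and 13.1 CPM in siRIC polysomal, 13.3, 13.5 and 11 CPM in siNT polysomal, 13.4, 13.5 and 11.3 CPM in siRIC total and 10.8, 10.3 and 9.97 CPM in siNT total libraries. Every H460 library was above every A549 library. Polysomal libraries lay above total libraries of the same siRNA in H460 siRIC, H460 siNT and A549 siNT cells and overlapped them in A549 siRIC cells. H2BC5, on chromosome 6 from base 26158121 to 26171349, was higher in A549. H460 cells had H2BC5 at 5.34, 3.58 and 3.18 CPM in siRIC polysomal, 5.12, 4.45 and 3.54 CPM in siNT polysomal, 2.61, 2.32 and 1.93 CPM in siRIC total and 2.6, 2.33 and 1.96 CPM in siNT total libraries. A549 cells had H2BC5 at 12.1, 7.97 and 7.12 CPM in siRIC polysomal, 9.99, 7.35 and 7.37 CPM in siNT polysomal, 7.32, 9.02 and 7.11 CPM in siRIC total and 7.46, 7.49 and 7.04 CPM in siNT total libraries. In H460 its polysomal libraries did not overlap its total libraries, while in A549 they did.

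H2BC21, a chromosome 1 H2B gene, stayed within a narrow range. H460 cells had H2BC21 at 3.34, 2.19 and 2.73 CPM in siRIC polysomal, 3.95, 3.32 and 1.69 CPM in siNT polysomal, 4.51, 5.25 and 2.69 CPM in siRIC total and 3.27, 3.6 and 3.35 CPM in siNT total libraries. A549 cells had H2BC21 at 2.7, 2.98 and 3.15 CPM in siRIC polysomal, 2.52, 2.13 and 2.63 CPM in siNT polysomal, 4.19, 2 and 2.74 CPM in siRIC total and 3.45, 3.03 and 3.19 CPM in siNT total libraries. The lines overlapped. In A549 siNT cells the polysomal libraries lay below the total ones, and in A549 polysomal RNA the siRIC libraries lay above the siNT ones, while the other pairs of groups overlapped.

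H3 forms the central tetramer of the nucleosome with H4. H3C10 was the most abundant H3 mRNA. H460 cells had H3C10 at 1.28, 1.34 and 0.909 CPM in siRIC polysomal, 1.07, 2.01 and 0.6 CPM in siNT polysomal, 1.86, 1.34 and 0.642 CPM in siRIC total and 1.79, 1.12 and 1.77 CPM in siNT total libraries. A549 cells had H3C10 at 3.91, 2.63 and 3.31 CPM in siRIC polysomal, 3.65, 1.89 and 2.86 CPM in siNT polysomal, 2.67, 2.04 and 2.41 CPM in siRIC total and 2.78, 1.85 and 2.36 CPM in siNT total libraries. Apart from replicate 2 of A549 siNT polysomal and A549 siNT total RNA, every A549 library was above every H460 library. H3C6, an H3 gene with an annotated span over 1000 bases, behaved differently in the fractions. H460 cells had H3C6 at 0.556, 0.268 and 0.909 CPM in siRIC polysomal, 0.907, 0.501 and 1.2 CPM in siNT polysomal, 0.787, 0.488 and 0.602 CPM in siRIC total and 1.33, 1.75 and 0.813 CPM in siNT total libraries. A549 cells had H3C6 at 0.745, 0.535 and 0.654 CPM in siRIC polysomal, 0.584, 0.503 and 0.599 CPM in siNT polysomal, 1.6, 1.41 and 0.912 CPM in siRIC total and 1.15, 0.82 and 1.28 CPM in siNT total libraries. In A549 every total library was above every polysomal library, and in H460 the fractions overlapped.

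Several H3 and H4 genes on chromosomes 1 and 6 are near-identical copies, and several of them were at 0 in some libraries of a group and not in others. H460 cells had H3C15 at 0, 0 and 2.42 CPM in siRIC polysomal, 5.07, 3.07 and 0 CPM in siNT polysomal, 1.32, 0 and 0.722 CPM in siRIC total and 1.63, 0.535 and 1.39 CPM in siNT total libraries. A549 cells had H3C15 at 0, 1.51 and 0 CPM in siRIC polysomal, 1.86, 0 and 0 CPM in siNT polysomal, 0.863, 1.54 and 0.438 CPM in siRIC total and 0, 0.57 and 0.372 CPM in siNT total libraries. H3C15 was at 0 in 9 of 24 libraries and its copy H3C14 in 15 of 24, whereas their sum was never 0 and lay between 0.357 and 5.07 CPM. The copies were picked after their values were seen.

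H4C14, on chromosome 1 from base 149832657 to 149833052, was the most abundant H4 mRNA and has H4C15 as its copy. H460 cells had H4C14 at 12.7, 6.75 and 4.75 CPM in siRIC polysomal, 14.3, 8.71 and 6.38 CPM in siNT polysomal, 10.8, 5.62 and 8.18 CPM in siRIC total and 7.09, 2.58 and 4.4 CPM in siNT total libraries. A549 cells had H4C14 at 9.77, 4.41 and 6.77 CPM in siRIC polysomal, 8.06, 2.24 and 6.96 CPM in siNT polysomal, 9.29, 11.3 and 6.86 CPM in siRIC total and 5.72, 8.8 and 4.72 CPM in siNT total libraries. No group stood apart. H460 cells had H4C15 at 0, 0 and 3.94 CPM in siRIC polysomal, 0.8, 0 and 3.65 CPM in siNT polysomal, 0, 1.14 and 1.2 CPM in siRIC total and 3.52, 3.84 and 5.45 CPM in siNT total libraries. A549 cells had H4C15 at 0, 5.08 and 1.61 CPM in siRIC polysomal, 0, 4.79 and 2.07 CPM in siNT polysomal, 0.0822, 0.0832 and 1.42 CPM in siRIC total and 2.1, 0 and 4.18 CPM in siNT total libraries. H4C15 was at 0 in 7 libraries.

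H4C11, with H4C12 as its copy, showed the same scatter. H460 cells had H4C11 at 4.84, 1.39 and 5 CPM in siRIC polysomal, 1.6, 4.45 and 3.6 CPM in siNT polysomal, 0.621, 0 and 1.93 CPM in siRIC total and 2.3, 0 and 0 CPM in siNT total libraries. A549 cells had H4C11 at 0.698, 0 and 3.23 CPM in siRIC polysomal, 3.43, 1.16 and 0 CPM in siNT polysomal, 1.11, 1.91 and 0 CPM in siRIC total and 1.23, 0 and 0 CPM in siNT total libraries. H4C11 and H4C12 were at 0 in 8 libraries each, and their sum in 0. The median coefficient of variation within a group was 115% for H4C11, 90.1% for H4C12 and 27.8% for their sum. For H4C14, H4C15 and their sum it was 40.1%, 111% and 19.8%, and for H3C14, H3C15 and their sum 134%, 95.7% and 32.2%. How the authors' quantification divides reads between copies was not given, so levels of these single genes are uncertain. Other members also had estimated counts that are not whole. The share of libraries was 95.8% for H2AC13, 83.3% for H2AC20, 79.2% for H3C13, 62.5% for H2BC21 and 45.8% for H2BC12. Their levels may be uncertain as well. For H1-2, H2AC6 and H2AC25 that share was 0%.

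**Figure D2:**
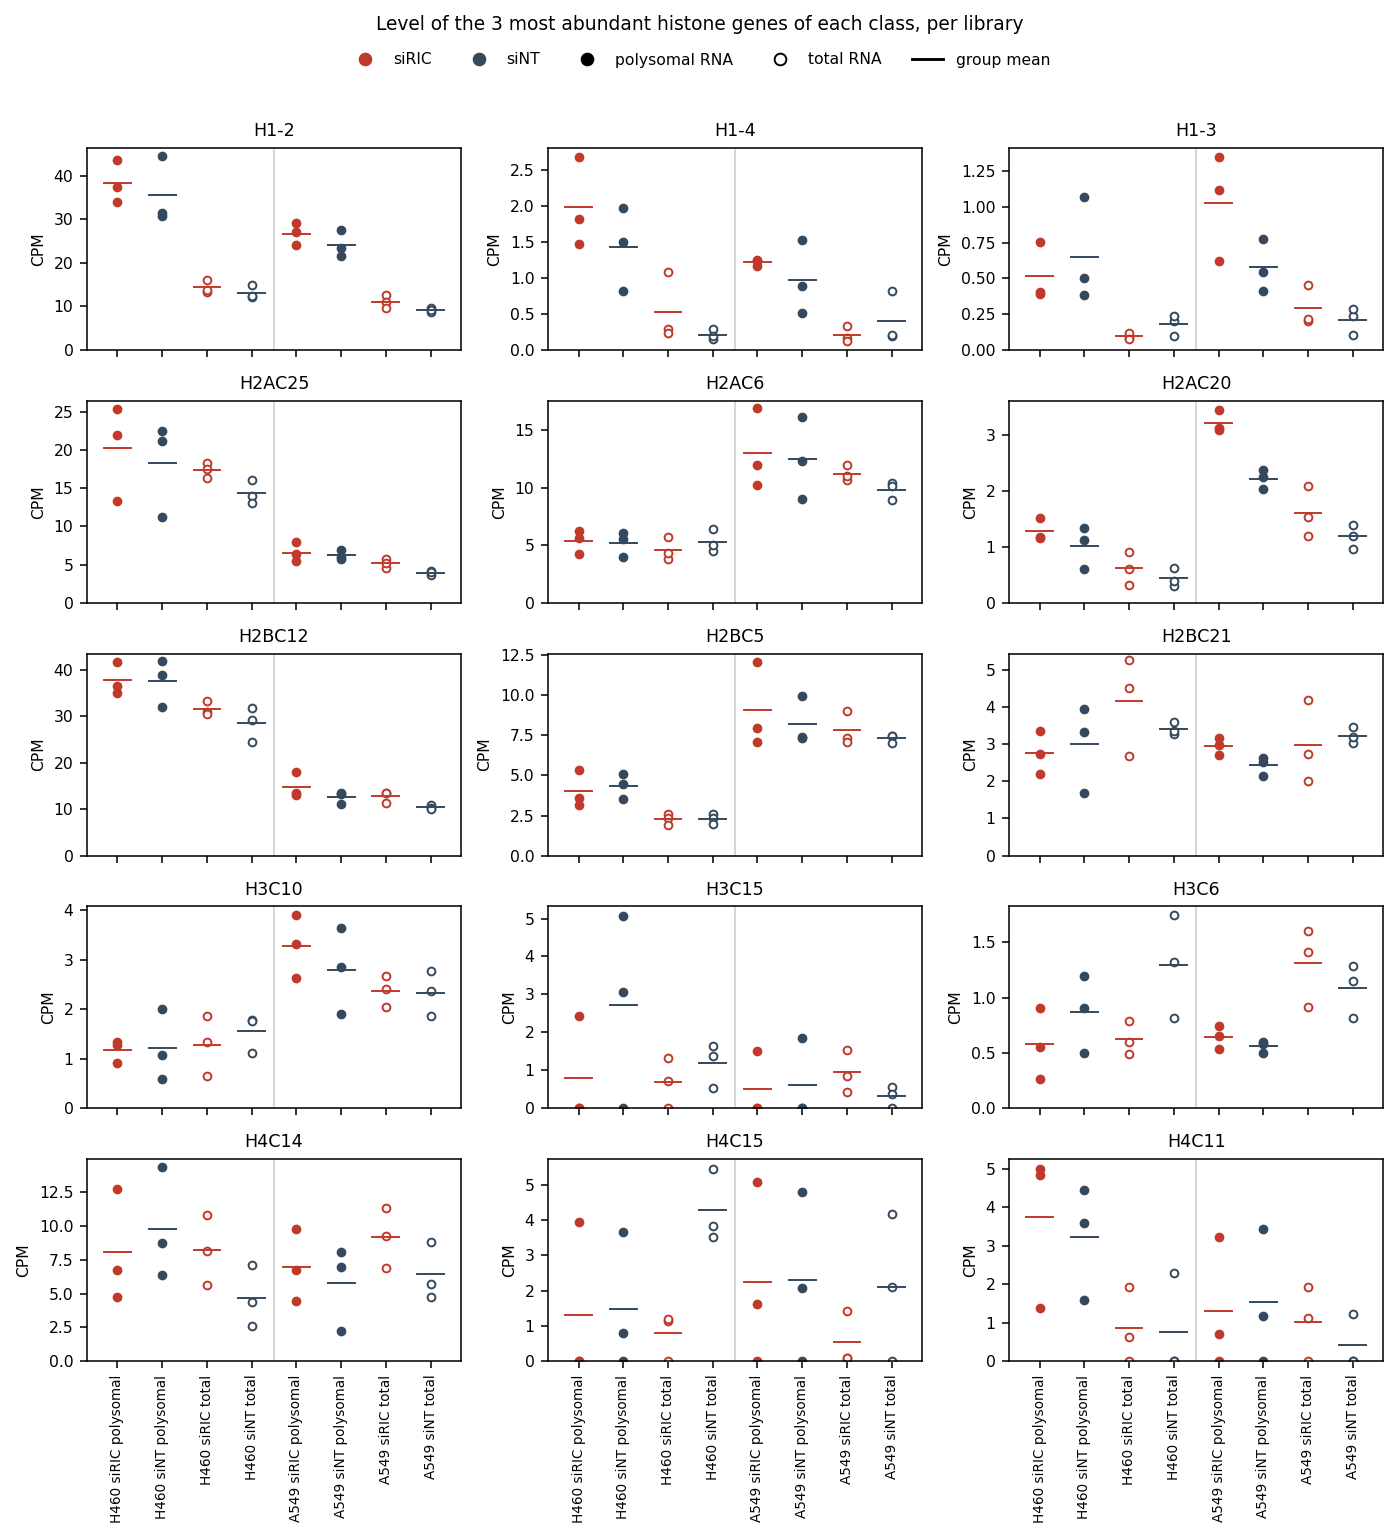
Level in CPM of the 3 histone genes of each class with the highest mean, in every library. Points are libraries (filled for polysomal, open for total RNA), bars are group means of 3 libraries, and groups run from H460 on the left to A549 on the right. H1-2 is higher in polysomal libraries of both lines, H2BC12 and H2AC25 are higher in H460, H2AC6 and H2BC5 are higher in A549, and H3C15, H4C15 and H4C11 scatter down to 0.

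The first comparison asks whether depleting RICTOR altered histone mRNA levels. No replication-dependent histone gene passed the threshold (adjusted p under 0.05, edgeR's quasi-likelihood test with Benjamini-Hochberg adjustment over all genes) in either line or fraction. In A549 total RNA 0 of 35 histone genes tested were called, where 0.325% of all 15396 genes passed, 0.0779% upward and 0.247% downward. In A549 polysomal RNA 0 of 35 were called, against 0.676% of all genes, 0.221% upward and 0.455% downward. In H460 0 of 31 were called in total and 0 of 31 in polysomal RNA, and 0% of all 14586 genes were called in either. The histone counts are therefore near the background of all genes in every case. At an unadjusted p under 0.05 there were 0 and 1 histone genes in A549 total and polysomal RNA and 1 and 1 in H460 total and polysomal RNA. DESeq2 also called 0 in each, with 0, 0, 1 and 0 at an unadjusted p under 0.05 in the same order.

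The abundant histone mRNAs gave small differences. H1-2 differed by 0.12 ± 0.19 (log2, SE) in H460 total, 0.13 ± 0.19 in H460 polysomal, 0.26 ± 0.15 in A549 total and 0.14 ± 0.15 in A549 polysomal RNA. H2BC12 differed by 0.14 ± 0.17, 0.02 ± 0.17, 0.29 ± 0.16 and 0.22 ± 0.16 in the same 4 settings. H2AC25 differed by 0.26 ± 0.28, 0.16 ± 0.28, 0.38 ± 0.18 and 0.08 ± 0.18, and the smallest adjusted p of a histone gene in A549 total RNA was 0.735. None of the adjusted p-values of these 3 genes was below 0.585.

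The genes with an unadjusted p under 0.05 were few and differed between settings. H2AC20 gave 0.53 ± 0.24 in A549 polysomal RNA (adjusted p = 0.383, edgeR). H3C6 gave -1.06 ± 0.46 in H460 total RNA, and H2BC17 gave 1.00 ± 0.45 in H460 polysomal RNA (adjusted p = 1 for both, edgeR).

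Over all members that passed the filter in a line, the median log2 change was -0.02 in H460 total and -0.03 in H460 polysomal RNA, where all genes had 0.02 in both. In A549 it was 0.19 in total and 0.12 in polysomal RNA, where all genes had 0.01 and 0.02. In A549 total RNA 22 of the 35 genes had a positive and 13 a negative change, and 0 had an unadjusted p under 0.05 (edgeR). The share of all genes with a positive change in A549 total RNA is not given here. The summed histone level there was 87.7, 90.7 and 77.8 CPM in siRIC libraries, against 75.5, 71.6 and 74.4 CPM in siNT libraries, so the groups did not overlap. A sum over chosen genes was given no test. The summed level of A549 polysomal RNA averaged 114.1 ± 8.36 CPM in siRIC and 105.1 ± 8.44 CPM in siNT libraries, and the groups overlapped. In H460 it averaged 101.3 ± 11.95 CPM in siRIC and 95.4 ± 8.24 CPM in siNT total libraries, and 152.0 ± 24.6 CPM in siRIC and 149.6 ± 31.9 CPM in siNT polysomal libraries (SD, n = 3 each), with overlap in both fractions. Within replicate numbers the H460 total sum was higher in siRIC in all 3 pairs (log2 0.14, 0.05 and 0.06), and so was the A549 total sum (0.22, 0.34 and 0.07). In polysomal RNA 1 of 3 H460 pairs and 2 of 3 A549 pairs had the higher sum in siRIC.

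No histone gene was called for a change of the polysomal-to-total ratio between siRIC and siNT cells by the same test. The test called no gene of any kind, so this does not show that the ratios were equal. In H460 0 of 31 and in A549 0 of 35 interaction terms were called, with 0% of all genes called in either line. At an unadjusted p under 0.05 there were 0 in H460 and 1 in A549, which was H2BC17 (-1.62 ± 0.75, adjusted p = 1), and DESeq2 called 0 in both with 0 at that level. The ratio change of H1-2 was 0.01 ± 0.27 in H460 and -0.12 ± 0.21 in A549. The siRIC effect in H460 minus that in A549 was called for 0 of 41 histone genes in total RNA and 0 of 41 in polysomal RNA, where 0% and 0.00606% of all 16507 genes were called. At an unadjusted p under 0.05 there were 3 histone genes in each fraction by edgeR, and 3 and 2 by DESeq2.

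**Figure D3:**
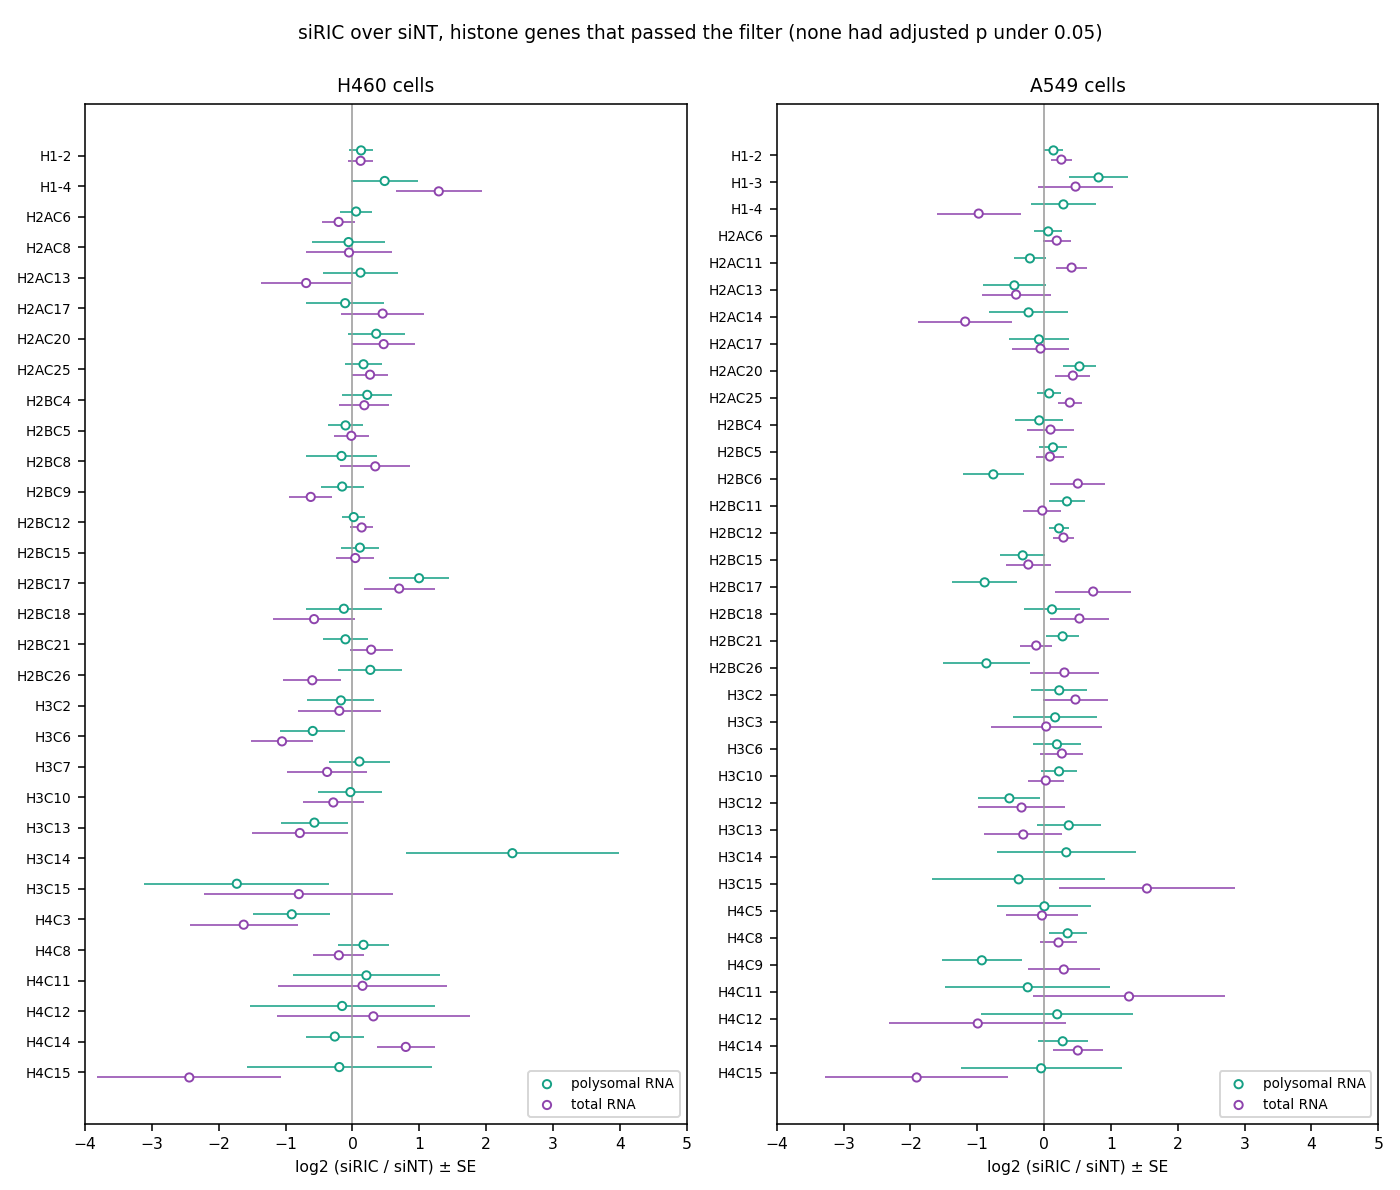
Log2 ratio of siRIC over siNT cells for each histone gene that passed the filter, with its SE, in polysomal and total RNA of H460 (left) and A549 (right). Genes with 3 or fewer counts in one of the groups are not drawn for that comparison. No gene had an adjusted p under 0.05, and the widest bars belong to the near-identical copies H3C14, H3C15, H4C11, H4C12 and H4C15.

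The second comparison asks which histone mRNAs were richer in polysomal than in total RNA of the same cells. Values are relative to the other RNAs of each fraction. In H460 the called histone genes were all higher in polysomal RNA, 9 of 31 in siRIC cells and 7 of 31 in siNT cells. In A549 8 were higher and 4 lower of 35 in siRIC cells, and 6 higher and 1 lower in siNT cells.

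Many other genes differed between fractions too. In H460 siRIC cells 29.0% of the histone genes were called against 23.7% of all genes, and in H460 siNT cells 22.6% against 22.9%. In A549 siRIC cells 34.3% of the histone genes were called against 42.2% of all genes, and in A549 siNT cells 20.0% against 37.1%. The differences between these shares were not tested. In the direction of higher polysomal levels all genes gave 13.1% and 12.5% in H460 siRIC and siNT cells, and 21.2% and 18.3% in A549 siRIC and siNT cells. In the lower direction all genes gave 10.6%, 10.5%, 21.0% and 18.8% in the same order.

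The median log2 difference over the histone genes that passed the filter was 0.60 in H460 siRIC and 1.01 in H460 siNT cells, and 0.25 in A549 siRIC and 0.46 in A549 siNT cells. For all genes it lay between -0.04 and -0.02 in these 4 settings. Members with a span under 1000 bases had medians of 0.86, 1.17, 0.38 and 0.63 in the same order, and longer members 0.31, 0.19, 0.16 and 0.11. A low gene could pass the filter through the libraries of a single group. In H460 siNT cells, H1-4 averaged 1.43 CPM in polysomal and 0.212 CPM in total RNA, and H3C13 1.21 and 0.216 CPM. The filter thus favours the fraction where a low member is high, so these medians and the calls of low members are a description. Among the low members called below, each with a mean under 1 CPM over the 24 libraries, are H1-3, H1-4, H2AC13, H2BC17, H3C2, H3C7, H3C12, H3C13 and H4C3.

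H1-2 was higher in polysomal RNA in every setting. The log2 difference was 1.46 ± 0.19 in H460 siRIC cells (adjusted p = 0.000453), 1.46 ± 0.19 in H460 siNT cells (0.000409), 1.21 ± 0.15 in A549 siRIC cells (1.74e-05) and 1.33 ± 0.15 in A549 siNT cells (1.5e-05). Within a replicate number the summed H1 level was 2.62 to 2.85 times as high in polysomal as in total RNA in H460 siRIC cells and 2.53 to 3.12 times in H460 siNT cells. It was 2.41 to 2.62 times as high in A549 siRIC and 2.21 to 2.91 times in A549 siNT cells. The call of H1-2 held whichever library was left out.

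H1-4 was called in 3 settings, at 1.94 ± 0.53 in H460 siRIC cells (adjusted p = 0.0196), 2.75 ± 0.61 in H460 siNT cells (0.00733) and 2.45 ± 0.58 in A549 siRIC cells (0.00290). H1-3, tested in A549 alone, was called at 1.75 ± 0.47 in siRIC (0.00713) and 1.40 ± 0.51 in siNT cells (0.0414). In H460 siRIC cells the call of H1-4 was lost without siRIC polysomal library 1, siRIC total library 2 or siRIC total library 3 (adjusted p = 0.0743, 0.0835 and 0.0860). In A549 siNT cells that of H1-3 was lost without siNT polysomal library 1 or 2, siNT total library 1, 2 or 3 or siRIC total library 1 (adjusted p = 0.0512 to 0.163), and with DESeq2 (0.0520). H1-5 and H1-1 did not pass the filter in either line.

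Among the core histones, H3C13, a chromosome 1 H3 gene, was among the largest. Its estimated counts were not whole in 79.2% of libraries, so its level may be uncertain. H460 cells had H3C13 at 0.946, 0.76 and 0.707 CPM in siRIC polysomal, 2.13, 1.07 and 0.436 CPM in siNT polysomal, 0.124, 0.0814 and 0.161 CPM in siRIC total and 0.357, 0.146 and 0.143 CPM in siNT total libraries. A549 cells had H3C13 at 0.698, 0.579 and 0.5 CPM in siRIC polysomal, 0.255, 0.696 and 0.415 CPM in siNT polysomal, 0.205, 0.291 and 0.11 CPM in siRIC total and 0.238, 0.143 and 0.372 CPM in siNT total libraries. In H460 its polysomal libraries were all above its total libraries. The difference was 2.71 ± 0.62 in H460 siRIC (adjusted p = 0.00893), 2.49 ± 0.58 in H460 siNT (0.00934) and 1.49 ± 0.53 in A549 siRIC cells (0.0338). The call was lost without H460 siNT polysomal library 1 in H460 siNT cells (0.0515). In A549 siRIC cells it was lost without siRIC polysomal library 1 or 2 or siRIC total library 1 or 3 (adjusted p = 0.0642 to 0.132), and with DESeq2 (0.0508).

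H3C7, another H3 gene, was called in H460 alone. H460 cells had H3C7 at 1.28, 0.671 and 0.707 CPM in siRIC polysomal, 1.01, 0.752 and 0.709 CPM in siNT polysomal, 0.29, 0.0814 and 0.161 CPM in siRIC total and 0.306, 0.292 and 0.0957 CPM in siNT total libraries. A549 cells had H3C7 at 0.186, 0.0891 and 0.115 CPM in siRIC polysomal, 0.474, 0.309 and 0.415 CPM in siNT polysomal, 0.0822, 0.0416 and 0.0365 CPM in siRIC total and 0, 0.143 and 0.124 CPM in siNT total libraries. It was too low to pass the filter in A549. The difference in H460 was 2.33 ± 0.52 in siRIC (adjusted p = 0.00777) and 1.84 ± 0.52 in siNT cells (0.0242), and the second was lost without siNT polysomal library 1 or siNT total library 1, 2 or 3 (adjusted p = 0.0517 to 0.103).

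H3C12, also an H3 gene, was called in A549. H460 cells had H3C12 at 0.445, 0.358 and 0.354 CPM in siRIC polysomal, 0.427, 0.376 and 0.382 CPM in siNT polysomal, 0.248, 0.244 and 0.161 CPM in siRIC total and 0.255, 0.243 and 0 CPM in siNT total libraries. A549 cells had H3C12 at 0.233, 0.668 and 0.538 CPM in siRIC polysomal, 0.365, 0.889 and 0.829 CPM in siNT polysomal, 0.164, 0.125 and 0.11 CPM in siRIC total and 0.119, 0.178 and 0.207 CPM in siNT total libraries. Polysomal libraries were above total libraries of the same siRNA in every group. It passed the filter in A549 and not in H460. The difference in A549 was 1.77 ± 0.57 in siRIC (adjusted p = 0.0200) and 1.95 ± 0.53 in siNT cells (0.00834). The first was lost without siRIC polysomal library 2 or 3 or siRIC total library 2 or 3 (adjusted p = 0.0503 to 0.0846).

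H2BC17, an H2B gene with a short span, was called in H460 siRIC and A549 siNT cells. H460 cells had H2BC17 at 1.06, 0.537 and 0.556 CPM in siRIC polysomal, 0.48, 0.313 and 0.273 CPM in siNT polysomal, 0.331, 0.163 and 0.321 CPM in siRIC total and 0.204, 0.146 and 0.143 CPM in siNT total libraries. A549 cells had H2BC17 at 0.233, 0.535 and 0.308 CPM in siRIC polysomal, 0.474, 1 and 0.507 CPM in siNT polysomal, 0.288, 0.374 and 0.255 CPM in siRIC total and 0.278, 0.178 and 0.0828 CPM in siNT total libraries. In A549 siNT cells its polysomal libraries were all above its total libraries, and in A549 siRIC cells the fractions overlapped. The difference was 1.42 ± 0.45 in H460 siRIC (adjusted p = 0.0364) and 1.80 ± 0.53 in A549 siNT cells (0.0135). The first was lost in 8 of 12 fits that left out 1 library, namely without siRIC polysomal library 1 or 2 or any siRIC or siNT total library (adjusted p = 0.0538 to 0.162), and with DESeq2 (0.0553). The second was lost without siNT polysomal library 2 or siNT total library 3 (0.0933 and 0.0685).

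H2BC5 was called in H460 at 0.87 ± 0.26 in siRIC (adjusted p = 0.0300) and 0.95 ± 0.26 in siNT cells (0.0212), and gave 0.16 ± 0.21 and 0.11 ± 0.21 in A549 siRIC and siNT cells. The H460 siRIC call was lost without siRIC polysomal library 1 or 2 or any siRIC total library (adjusted p = 0.0521 to 0.126). The H460 siNT call was lost without siNT polysomal library 1 or siNT total library 2 or 3 (0.0736, 0.0661 and 0.0927). H2AC20 was called in A549 at 0.95 ± 0.25 in siRIC (0.00592) and 0.85 ± 0.26 in siNT cells (0.0162), the second lost without siNT total library 2 (0.0730). H2AC25 was called in A549 siNT cells at 0.60 ± 0.18 (0.0160), lost without siNT polysomal library 1 or siNT total library 1 (0.0679 and 0.0626).

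With plain library totals as the scale the H460 siRIC calls of H2BC5, H2BC17 and H3C2 were lost (adjusted p = 0.0676, 0.0635 and 0.0513), and so were the H460 siNT calls of H3C2 and H4C3 (0.0546 and 0.0588).

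The remaining calls in the higher direction were H3C2 and H4C3 in both H460 settings, H2AC13 in H460 siRIC cells, and H2BC11 and H3C14 in A549 siRIC cells. Each of them but H3C14 was lost when at least 1 library was left out. H3C14 had 74 counts in the A549 siRIC polysomal and 0 in the total libraries, at least 26.7-fold higher with 3 counts over the group as the floor, and DESeq2 did not call it (adjusted p = 0.0946). With its copy H3C15 added it had 1.49, 1.51 and 1.61 CPM in the polysomal and 0.863, 1.54 and 0.438 CPM in the total libraries, which overlapped. The fractions of this sum also overlapped in H460 siNT cells. They did not in H460 siRIC cells (4.56, 2.77 and 2.42 CPM polysomal, 1.32, 1.14 and 0.722 CPM total). Nor did they in A549 siNT cells (1.86, 1.35 and 1.15 CPM polysomal, 0.357, 0.57 and 0.372 CPM total). The sum of the copies H4C11 and H4C12 had 3.43, 3.48 and 3.32 CPM in A549 siNT polysomal libraries. In A549 siNT total libraries it had 1.23, 1.07 and 2.03 CPM, without overlap, although neither copy was called alone. Its fractions did not overlap in A549 siRIC cells either (3.4, 3.7 and 3.23 against 1.11, 2.25 and 1.17 CPM). The same held in H460 siRIC (7.4, 4.52 and 5 against 2.98, 1.75 and 1.93 CPM) and H460 siNT cells (7.15, 4.45 and 4.58 against 2.3, 1.75 and 1.53 CPM).

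The genes lower in polysomal RNA were found in A549. H3C6 had -1.07 ± 0.34 in siRIC (adjusted p = 0.0181) and -1.0 ± 0.34 in siNT cells (0.0315). In siRIC cells H2AC11 had -0.79 ± 0.24 (0.0135), H2BC6 -1.41 ± 0.44 (0.0170) and H2BC26 -2.04 ± 0.60 (0.0123). Every one of these 5 calls was lost when at least 1 library was left out. The H3C6 call in siRIC cells was lost without siRIC polysomal library 2 or siRIC total library 1 or 2 (adjusted p = 0.0541 to 0.0872). In siNT cells it was lost without any siNT polysomal library or siNT total library 1 or 3 (0.0602 to 0.114), and with DESeq2 (0.0524). H2AC11 was lost without siRIC total library 2 (0.0619), H2BC26 without siRIC total library 1 (0.0708), and H2BC6 without siRIC polysomal library 1 or 2 or siRIC total library 3 (0.0532 to 0.0594).

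Of the genes called in H460, 7 were shared by both siRNAs, which is 77.8% of the siRIC list and 100% of the siNT list. They were H1-2, H1-4, H2BC5, H3C2, H3C7, H3C13 and H4C3. In A549 5 were shared, 41.7% of the siRIC list and 71.4% of the siNT list, namely H1-2, H1-3, H2AC20, H3C6 and H3C12. The filter favours the fraction where low members are high, so the sharing of H1-3, H1-4, H3C2, H3C7, H3C12, H3C13 and H4C3 is a description. With the replicate number as a block, every H460 call held by edgeR, with an adjusted p of at most 0.0187 (H2BC17 in siRIC cells). In the fits without a block, the H460 counts moved when single libraries were left out. Against 9 calls in siRIC cells there were 5 without siRIC polysomal library 1, 5 without siRIC total library 2 and 3 without siRIC total library 3. These counts include newly called genes. The calls of H1-4, H2AC13, H2BC5, H2BC17, H3C2 and H4C3 were lost in each of these fits. Of 7 calls in siNT cells 2 were left without siNT polysomal library 1, 3 without siNT total library 2 and 3 without siNT total library 3, and there were 13 without siNT polysomal library 3. Without both H460 polysomal libraries of replicate 3, the counts were 17 (15 higher, 2 lower) in siRIC and 14 (13 higher, 1 lower) in siNT cells. The share of all genes called in these fits is not given here, so these moves are not a result about histone genes.

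**Figure D4:**
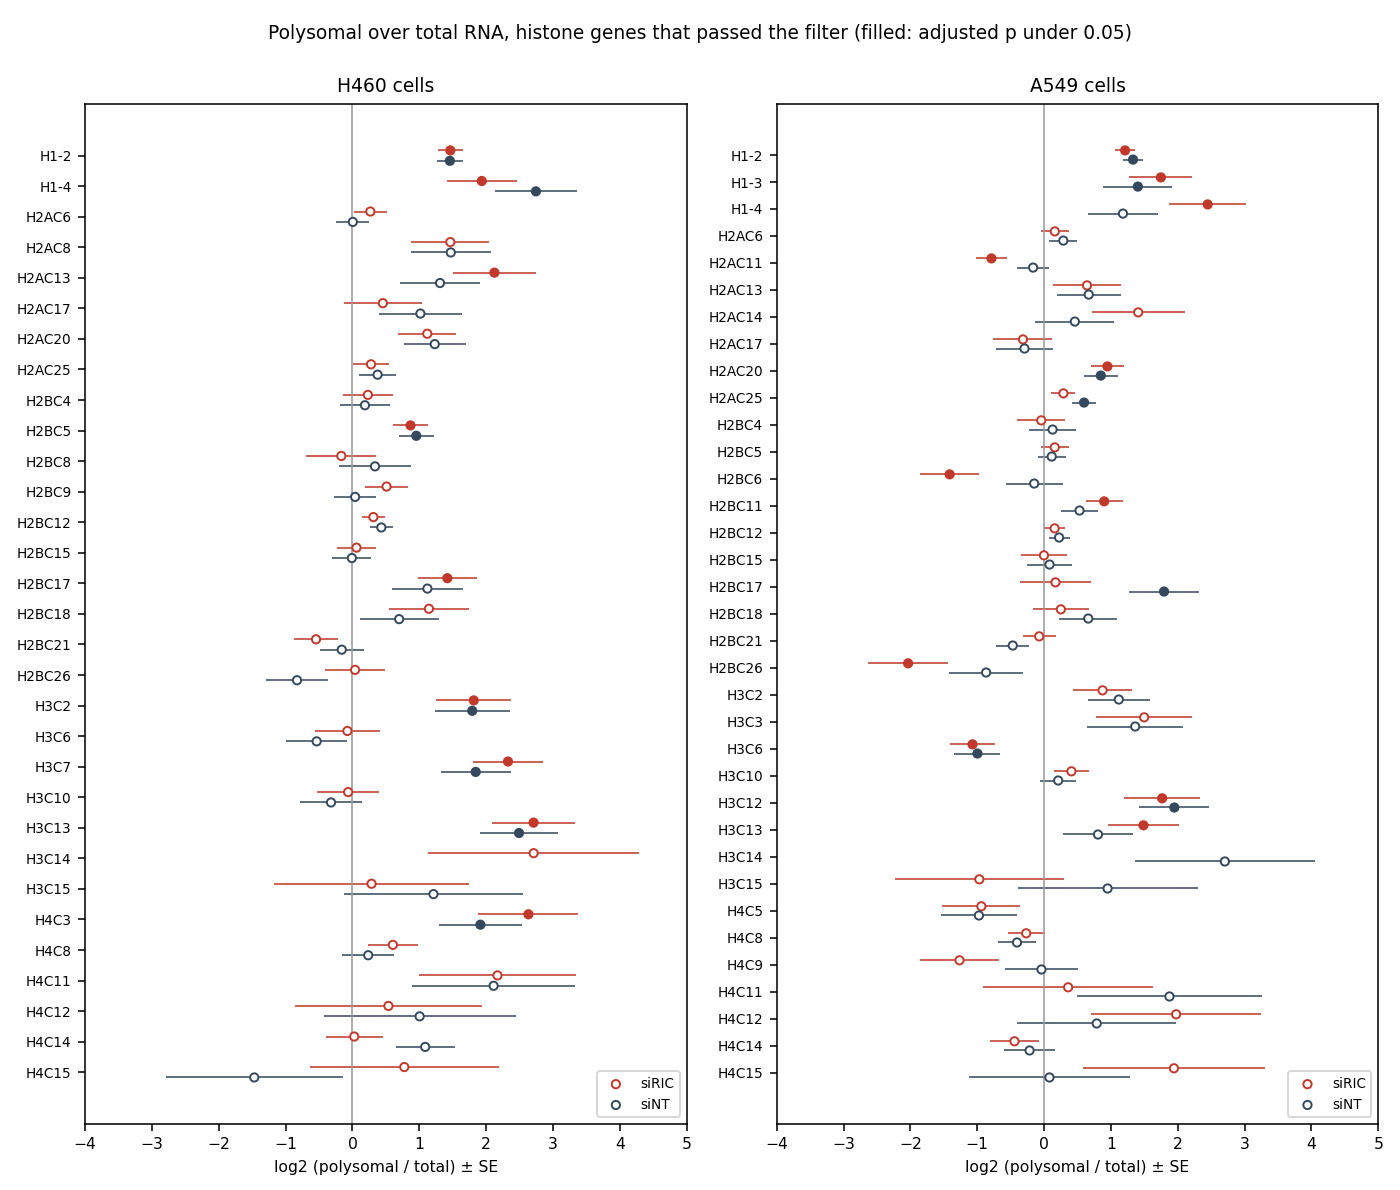
Log2 ratio of polysomal over total RNA for each histone gene that passed the filter, with its SE, in siRIC and siNT cells of H460 (left) and A549 (right). Filled points had an adjusted p under 0.05, and genes with 3 or fewer counts in one of the groups are not drawn for that comparison. H1-2 lies between 1.21 and 1.46 with short bars in all 4 settings, and filled points below 0 occur in A549 alone.

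The third comparison sets H460 against A549 in siNT cells. Histone genes were about evenly split. In total RNA 7 were higher and 9 lower in H460 of 41 tested, and in polysomal RNA 8 were higher and 9 lower. This was 39.0% and 41.5% of the histone genes, where 55.1% and 58.2% of all 16507 genes were called. The difference in these shares was not tested, and 51 of the 66 histone genes had a mean under 1 CPM. All genes gave 26.2% higher and 28.9% lower in total RNA, and 29.9% higher and 28.3% lower in polysomal RNA. The histone median was -0.29 in total and 0.33 in polysomal RNA (all genes -0.02 and 0.03). Of the 41 histone genes, 9 passed the filter in A549 only and 5 in H460 only. Passing in a single line favours the line where a low member is high, so the counts, shares and medians given here are a description.

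Of the histone genes called between lines 15 were called in the same direction in both fractions, which is 88.2% of the polysomal and 93.8% of the total RNA list. Among these 15, only H1-2, H2AC6, H2AC20, H2AC25, H2BC5, H2BC12 and H2BC15 passed the filter within both lines. The others entered through the line where they are high. The polysomal-to-total ratio differed between the lines for 0 of 41 histone genes by edgeR (5 at an unadjusted p under 0.05) and for 0 by DESeq2 (4 at that level), with 0% of all genes called.

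The abundant mRNAs went in both directions. H2BC12 was higher in H460 by 1.38 ± 0.16 in total (adjusted p = 1.42e-07) and 1.62 ± 0.16 in polysomal RNA (1.12e-08). H2AC25 was higher by 1.79 ± 0.25 (1.79e-06) and 1.60 ± 0.24 (6.07e-06). H1-2 was higher by 0.44 ± 0.18 (0.0393) and 0.60 ± 0.17 (0.00470). The H1-2 call in total RNA was lost without any A549 siNT total library or H460 siNT total library 1 (adjusted p = 0.0708 to 0.177), and that in polysomal RNA without H460 siNT polysomal library 1 (0.0707). With plain library totals as the scale both H1-2 calls were lost (0.135 in total and 0.113 in polysomal RNA).

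H2AC6 was lower in H460, with log2 differences of -0.97 ± 0.24 in total (adjusted p = 0.00172) and -1.21 ± 0.24 in polysomal RNA (0.000184). H2BC5 was lower at -1.75 ± 0.25 (2.43e-06) and -0.87 ± 0.24 (0.00317), and H2AC20 at -1.49 ± 0.38 (0.00180) and -1.07 ± 0.34 (0.00951). The calls of H2BC12, H2AC25, H2AC6 and H2BC5 held whichever library was left out. That of H2AC20 in polysomal RNA was lost without both H460 polysomal libraries of replicate 3 (0.0557).

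Some other members were at or near 0 in one of the lines. Of the 41 genes tested between lines, 26 passed the filter within both lines, 9 in A549 only, 5 in H460 only and 1 in neither. Those 9 were H1-3, H2AC11, H2AC14, H2BC6, H2BC11, H3C3, H3C12, H4C5 and H4C9, and those 5 were H2AC8, H2BC8, H2BC9, H3C7 and H4C3. Passing in a single line favours the line where a low member is high, so their line differences are given as a description. Not all of them were near 0 in the other line. H2AC14 averaged 0.3083 CPM in H460 and 0.3075 CPM in A549, and H4C5 0.446 and 0.285 CPM in siNT polysomal RNA. In H460 H2AC11 had 0 CPM in every library. A549 cells had H2AC11 at 1.58, 1.56 and 1.5 CPM in siRIC polysomal, 2.15, 1.66 and 1.52 CPM in siNT polysomal, 2.38, 2.99 and 2.33 CPM in siRIC total and 2.1, 1.93 and 1.74 CPM in siNT total libraries. H2AC11 thus had no count in 12 H460 libraries and 586 counts in 12 A549 libraries. In siNT cells it was at least 39.2-fold lower in H460 total RNA and at least 31.8-fold lower in H460 polysomal RNA, with 3 counts over the group as the floor.

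Its neighbour H2BC11, which shares the 247-base interval printed above as H2AC11, followed it. H460 cells had H2BC11 at 0.111, 0 and 0.354 CPM in siRIC polysomal, 0.213, 0.125 and 0.164 CPM in siNT polysomal, 0.0828, 0.163 and 0.0802 CPM in siRIC total and 0.102, 0.243 and 0.0957 CPM in siNT total libraries. A549 cells had H2BC11 at 2.88, 2.27 and 2.19 CPM in siRIC polysomal, 1.64, 1.89 and 2.26 CPM in siNT polysomal, 0.863, 1.37 and 1.53 CPM in siRIC total and 1.51, 1.21 and 1.12 CPM in siNT total libraries. The highest H460 library was below the lowest A549 library. The log2 difference was -3.15 ± 0.53 in total and -3.43 ± 0.52 in polysomal RNA.

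The pair H2AC8 and H2BC8, with the 232-base interval printed above as H2AC8, had the opposite pattern. H2AC8 had 134 counts in the H460 libraries and 0 counts in all 12 A549 libraries. In siNT cells it was at least 8.03-fold higher in H460 total and at least 21.2-fold higher in H460 polysomal RNA. H2BC8 had 159 counts in H460 and 6 in A549, and in siNT cells its ratio was 14.4 in total RNA (95% counting interval 4.52 to 73.1) and 52.3 in polysomal RNA (8.82 to 2120). Both genes of the pair thus lay at or near 0 in A549.

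H2BC9 was higher in H460 by 2.61 ± 0.55 and 3.72 ± 0.62, and H2BC15 by 1.32 ± 0.30 and 1.27 ± 0.30, in total and polysomal RNA. H4C9, inside the H2BC12 span, had 0 counts in H460 siNT libraries and was at least 8.94-fold lower in total and 7.78-fold lower in polysomal RNA there, although H2BC12 was higher. H3C3 was at least 2.89-fold lower in H460 total and 6.84-fold lower in H460 polysomal RNA.

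The 61 histone genes with a strand in the promoter table formed 13 pairs of neighbours that are transcribed away from each other with under 1000 bases between them, H2BC12 and H2AC12 not being counted since no strand was at hand for H2AC12, and 12 pairs had at least 24 counts for each gene. In 6 of these the genes had their higher mean in the same line, and in 6 in opposite lines. The split rests on the sign of the difference alone, however small. Among the opposite pairs, H2AC14 (with H2BC14) averaged 0.3083 CPM in H460 and 0.3075 CPM in A549. Likewise H2BC17 (with H2AC17) averaged 0.377 CPM in H460 and 0.3764 CPM in A549. H2BC4 and H2AC6, 245 bases apart, were an opposite pair, with H2BC4 averaging 1.62 CPM in H460 and 1.05 CPM in A549 and H2AC6 averaging 5.13 CPM in H460 and 11.7 CPM in A549. H2AC25 and H2BC26, 229 bases apart, shared a direction but not its size. H2AC25 averaged 17.6 CPM in H460 and 5.48 CPM in A549, and H2BC26 0.590 and 0.525 CPM. Both H2AC7 and H3C4 form a pair with H2BC7, since they overlap each other. The pair means are over 12 libraries per line and were given no test.

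**Figure D5:**
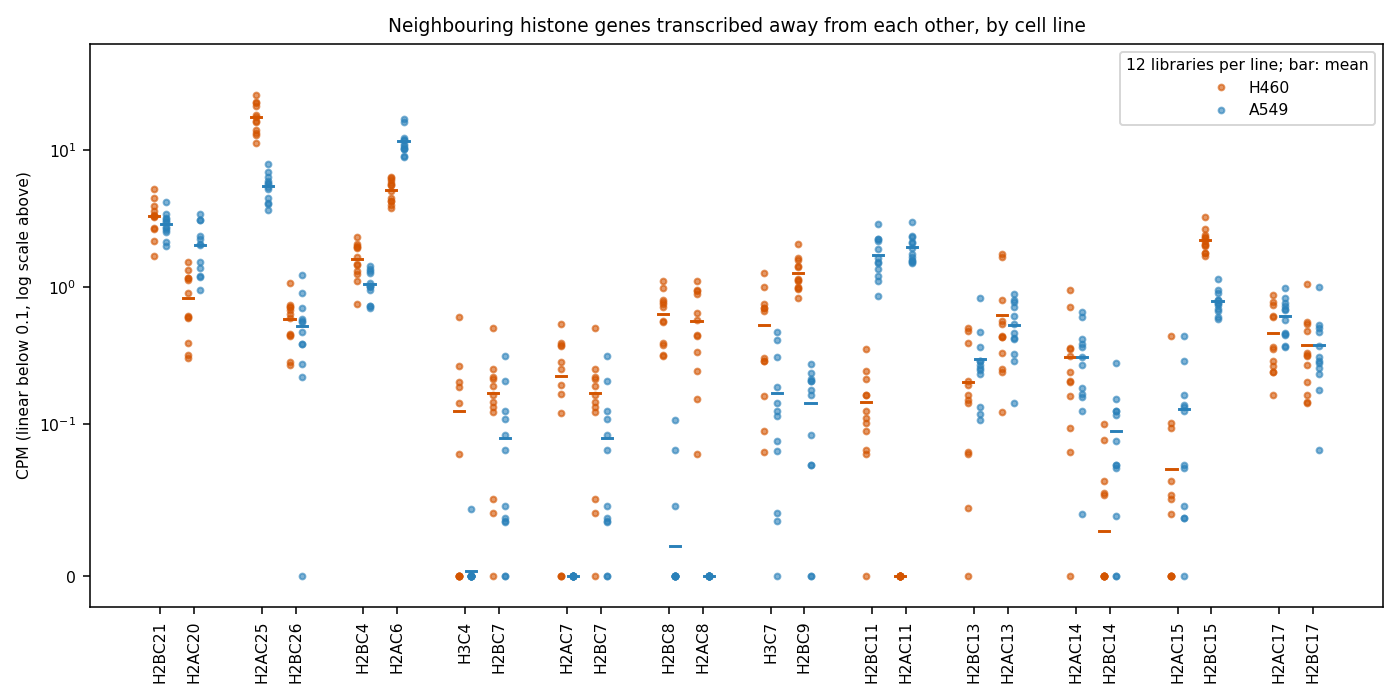
Level in CPM (linear below 0.1, log scale above) of the 12 pairs of neighbouring histone genes with at least 24 counts for each gene that are transcribed away from each other, in the 12 H460 and 12 A549 libraries, with bars at the line means. H2BC11 and H2AC11 are both lower in H460, H2BC8 and H2AC8 both higher in H460, and H2BC4 and H2AC6 lie in opposite directions.

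Genes that serve histone mRNA were described from lists. SLBP, which binds the stem-loop, differed between siRIC and siNT cells by 0.07 ± 0.24 in H460 total, -0.05 ± 0.24 in H460 polysomal, -0.20 ± 0.14 in A549 total and -0.41 ± 0.14 in A549 polysomal RNA, and passed in none (adjusted p = 0.216 in A549 polysomal RNA). Its level in A549 polysomal RNA was 50.4, 61.2 and 54.7 CPM in siRIC libraries, against 78.1, 80.4 and 61.9 CPM in siNT libraries, without overlap. NPAT, the coactivator of histone gene transcription, differed by at most 0.13 in size in any of the 4 settings. Of 25 genes of histone mRNA processing and decay, 19 of histone supply and chaperones, and 25 of S phase entry, 0 were called between siRIC and siNT cells in either line or fraction by edgeR.

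Between fractions some of these genes were called, where 23.7% of all genes were in H460 siRIC, 22.9% in H460 siNT, 42.2% in A549 siRIC and 37.1% in A549 siNT cells. Of the 25 S phase genes 8 were higher and 0 lower in H460 siRIC, 9 and 0 in H460 siNT, 9 and 1 in A549 siRIC and 12 and 0 in A549 siNT cells, with medians of 0.47, 0.47, 0.27 and 0.42. Of the 11 replacement histones 5, 5, 3 and 6 were higher and 0, 0, 3 and 1 lower in the same order, with medians of 0.32, 0.39, 0.31 and 0.45. H1-10, a replacement linker histone, was higher in all 4, by 1.40 ± 0.33, 1.10 ± 0.32, 1.32 ± 0.14 and 1.20 ± 0.14. HAT1, which acetylates newly made H4, was higher by 1.15 ± 0.18, 1.12 ± 0.18, 1.33 ± 0.14 and 1.07 ± 0.14. Of the processing and decay genes 3, 4, 7 and 5 were higher and 0, 1, 4 and 2 lower, among them CPSF3, the nuclease that cuts histone pre-mRNA, higher by 0.94 ± 0.16 and 1.00 ± 0.16 in H460 siRIC and siNT cells. Of the supply and chaperone genes 4, 3, 6 and 7 were higher and 2, 2, 2 and 2 lower, among them RBBP7, a histone chaperone, higher by 0.92 ± 0.15 and 0.93 ± 0.15 in H460 siRIC and siNT cells.

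MALAT1, a nuclear RNA without a poly(A) tail whose end is a triple helix, was lower in polysomal RNA, at -2.79 ± 0.27 in A549 siRIC (adjusted p = 2.01e-06) and -2.75 ± 0.26 in A549 siNT cells (4.87e-06). In H460 MALAT1 had -1.31 ± 0.43 in siRIC (0.0430) and -1.04 ± 0.43 in siNT cells (0.0964). Of the 26 listed RNAs 6 were tested in H460, with 0 higher and 1 lower in siRIC and 0 called in siNT cells. In A549 7 were tested, with 1 higher and 5 lower in siRIC and 1 higher and 4 lower in siNT cells.

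As a description over the 12 libraries of a line, the genes whose level ranked most like the summed histone level in H460 were ENDOG and NME2 (Spearman's rho 0.993 each), ATP6V1F, BOLA2B and RPL15 (0.986 each), among 10468 genes. In A549 they were HSDL1 and COMMD3 (0.972 each), EMC2, RGS2 and CTSL (0.958 each), among 10561 genes. The 12 libraries share the split into polysomal and total RNA, which alone orders them in large part.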

How the data were processed

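Polysomal and total RNA of siRIC and siNT cells of 2 lines was sequenced in 24 libraries. The authors deposited a merged table of estimated counts per gene (unit: expected counts), and the table's name gives salmon as the tool. Of its values, 9.4% are not whole. Base calling used bcl2fastq 2.20 and the build was GRCh38, per the submitters' processing notes. For salmon, the version, settings and annotation are not given in the sources used here. All columns were assigned to libraries by their titles, and 0 were left out. Symbols were found for 60437 of 60666 gene IDs (99.6%).

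Counts were rounded to whole numbers and filtered with filterByExpr, then scaled by TMM and tested with edgeR 4.0.16's quasi-likelihood test (limma 3.58.1, R 4.3.3). One fit was made per line over its 12 libraries (8 residual degrees of freedom), and one over all 24 (16) for comparisons of lines and of siRIC effects between lines. P-values were adjusted by Benjamini-Hochberg across the whole table of tested genes, and calls have an adjusted p under 0.05. DESeq2 1.42.0, other scalings, no filter, leaving out libraries and a replicate block were alternatives. The fits were tested on simulated data. Library totals and counts limit the precision, and intervals and floors cover counting error only.

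Genes given in every library are the 3 of each class with the highest mean and, per comparison, up to 4 members with the smallest adjusted p under 0.05. From each list, up to 3 called genes per comparison and SLBP, NPAT and RICTOR are named, and other names follow from counts. The members and lists were chosen with earlier results of these data known. The labels give the replicate number as a batch, which pairs libraries of a line. Deviations from group means correlated between same-numbered libraries at 0.0219 to 0.263 in A549 and 0.0452 to 0.671 in H460, and between others at -0.275 to 0.0226 and -0.503 to 0.127.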

Additional observations from a re-analysis of the deposited data

How the results depend on the processing

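No called histone gene changed its sign under the alternatives tried. Without the filter on low counts, 1 histone gene was called between siRIC and siNT cells in A549 total RNA, 1 for the A549 ratio and 1 for the siRIC effect in H460 minus A549 in total RNA. The same setting gave 12 calls for polysomal against total RNA in A549 siNT cells and 26 for H460 against A549 in polysomal RNA. Fitting only the groups compared gave 4 calls in H460 siNT cells. Without both H460 polysomal libraries of replicate 3 the fraction counts were 17 in siRIC and 14 in siNT cells. Leaving out 1 library at a time gave 3 to 13 calls in H460 siRIC, 2 to 13 in H460 siNT, 8 to 12 in A549 siRIC and 5 to 8 in A549 siNT cells. Between lines it gave 13 to 19 calls in total and 15 to 19 in polysomal RNA, and 0 in the other comparisons. The shares of all genes called under these alternatives, and with the block below, are not given here. The counts therefore describe the fits and are not a result about histone genes.

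With the replicate number as a block, the fraction counts were 9 in H460 siRIC, 9 in H460 siNT, 12 in A549 siRIC and 7 in A549 siNT cells. Between lines they were 14 (8 higher, 6 lower, against 7 and 9 without it) in total and 20 (11 higher, 9 lower) in polysomal RNA, and 0 in all other comparisons. Under this pairing the total RNA calls of H2BC6, H3C3 and H4C5 between lines were lost (adjusted p = 0.0718, 0.152 and 0.0697).

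Plain library totals put the mean summed level at 97.4 CPM in A549 siRIC total and 80.9 CPM in A549 siNT total RNA. Totals without mitochondrially encoded genes put it at 115.6 CPM in H460 siRIC total, 108.1 CPM in H460 siNT total, 125.2 CPM in A549 siRIC polysomal, 117.0 CPM in A549 siRIC total and 97.3 CPM in A549 siNT total RNA. Plain totals as the scale also shifted the median of all genes by -0.17 in both H460 fraction comparisons and by -0.14 in total and -0.24 in polysomal RNA between lines. Low depth limits the test of many members, as 51 of 66 genes had a mean under 1 CPM and 31 passed the filter in H460 and 35 in A549.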
